A study of Drosophila melanogaster with 3 samples.

Results

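Shared peak gaps longer than 500 nt are stretches of 1 strand that hold no exon junction complex (EJC) peak in 2 or more purifications from Drosophila S2 cells. They begin and end at the same bases in those purifications, while a purification that does not share a gap may have peaks inside it. A gap was taken between neighbouring peaks of 1 chromosome and strand, from the end of one peak to the start of the next. It was kept when it was longer than 500 nt and both borders were identical in 2 or more of the 3 deposited peak lists. This left 270 of the 1998 gaps of any length shared by at least 2 lists, and 79 long ones when only the deeper peaks of each list (above its median depth) were used. The gaps were thus chosen by their length and borders, and both are given as descriptions.

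The lists came from S2 cells, a long-kept embryonic line of Drosophila melanogaster that resembles blood cells. A tagged protein was switched on in them by copper. Each cell population was grown for 72 h and then held in 100 µg/ml of the translation inhibitor cycloheximide for 2 h. Complexes were caught by the tag, bound to oligo(dT), trimmed for 15 min with micrococcal nuclease (MNase), and caught again by an antibody to a second, endogenous EJC protein. The purifications were tagged eIF4AIII then Y14 (0.5 units of MNase), tagged Btz then eIF4AIII (0.5 units) and tagged Y14 then eIF4AIII (0.3 units). They are written eIF4AIII/Y14, Btz/eIF4AIII and Y14/eIF4AIII. The header line of the first list names Y14 alone, and the list was grouped by its sample label. Each had 1 library, so no difference between purifications was tested and no p-value is given, and no mock purification was analysed here. The libraries held 16094 to 36393 peaks each, of median width 31 to 53 nt. A peak's depth is the score that the authors deposited, which is not scaled between libraries. It is read here as a mean number of reads per base, for the reason given under the processing. Depths are set against each other only within a list.

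Splicing removes introns and leaves the EJC on the upstream exon, a short fixed distance before the new exon-exon junction. The RNA helicase eIF4AIII clamps the RNA, Y14 with its partner Mago locks the helicase in its closed state, and Btz (Barentsz, known as MLN51 in mammals) completes the core. On spliced mRNA the intron is absent, so peaks on neighbouring exons stand apart on the genome by the length of the intron. Most Drosophila introns are very short, and long ones are a minority that often carry regulatory elements or whole nested genes. In flies the EJC is known to be needed for the splicing of some long introns, such as those of the MAP kinase gene rolled, and for the localisation of oskar mRNA.

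Most of the long shared gaps were found in the lists with the most peaks. Of the 270, 178 were in eIF4AIII/Y14 and Btz/eIF4AIII alone, 56 in Btz/eIF4AIII and Y14/eIF4AIII alone, 16 in eIF4AIII/Y14 and Y14/eIF4AIII alone, and 20 in all 3 lists. No 2 of them could overlap on 1 strand, since any 2 pairs of lists have a list in common. Sharing was rare among long gaps. In eIF4AIII/Y14, 214 of 15575 gaps over 500 nt were shared (1.37%), in the Btz/eIF4AIII list 254 of 14103 (1.8%) and in the Y14/eIF4AIII list 92 of 9964 (0.923%). Gaps of 50 to 75 nt, the usual size of a fly intron, were shared at 1232 of 9556 distinct gaps (12.9%), against 270 of 39352 (0.686%) over 500 nt.

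The long shared gaps ran from 504 to 276314 nt with a median of 1518 nt and quartiles of 817 and 4664 nt. Gaps over 500 nt found in 1 list had a median of 3288 nt and quartiles of 1045 and 15678 nt. By class, 90 shared gaps were up to 1000 nt long, 65 were above that and up to 2000 nt, 52 up to 5000 nt, 27 up to 10000 nt and 36 were longer. On the 6 chromosome arms this was 1.80 shared gaps per 100 annotated introns in the class up to 1000 nt, 1.53 up to 2000 nt, 1.21 up to 5000 nt, 1.12 up to 10000 nt and 1.31 for longer ones.

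**Figure D1:**
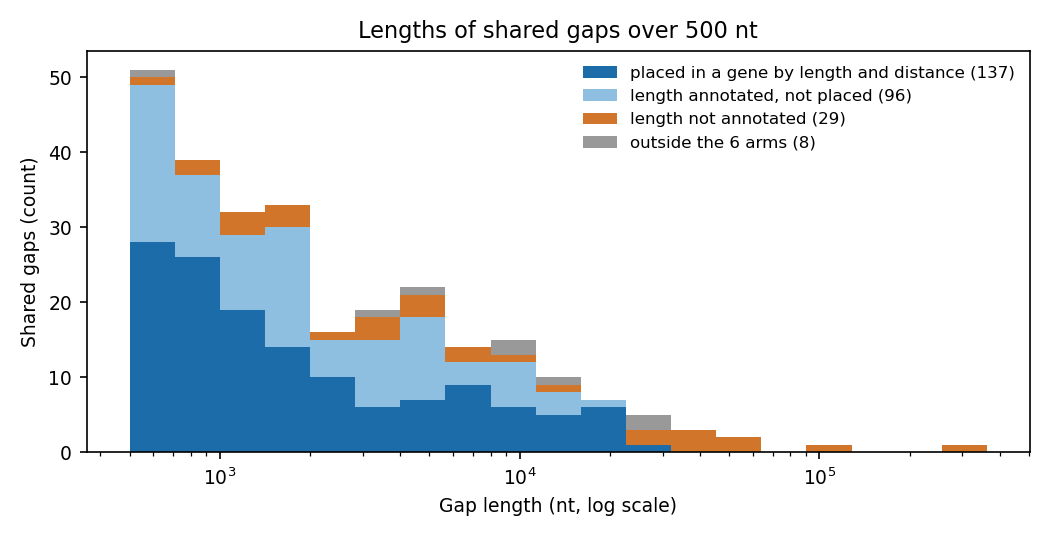
Lengths of the 270 shared gaps over 500 nt on a log axis, stacked by whether a gap of the 6 arms was placed in a gene (137), had only an annotated intron length (96), had neither (29) or lay outside the arms (8). The gaps without an annotated length include all those longer than 30025 nt.

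The gaps were spread over all arms, with 63 on 2R, 55 on 3R, 54 on 3L, 46 on 2L, 30 on X and 14 on the small chromosome 4. Chromosome 4 thus held 5.19% of them (exact 95% interval 2.86 to 8.55), while it carries 2.38% of the annotated introns over 500 nt and held 2.55% of the shared gaps up to 500 nt. X held 11.1% (7.62 to 15.5) against 19.4% of the annotated introns and 13.2% of the shorter shared gaps. The interval of chromosome 4 just excludes its share of introns and that of X excludes its own, counting error only. The minus strand held 153 and the plus strand 117. The heterochromatic and unplaced sequences held 8, of which 3 were on 2RHet, 2 each on 3LHet and Uextra, and 1 on U.

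Whether these gaps have the lengths of real introns was asked with an annotation of release 6 of the genome, which differs from the release 5 names of the lists. Only lengths and distances were used and no position was carried over. Of the 262 shared gaps on the arms, 233 had exactly the length of an intron annotated on the same arm and strand, 88.9% (84.5 to 92.5), against 26.2% of the unshared gaps over 500 nt. Short lengths match easily, since 60.7% of all lengths above 500 and up to 1000 nt occur among the introns of an arm and strand. In that class 96.6% of the shared and 64.5% of the unshared gaps matched. In the class up to 2000 nt the values were 90.8% and 37.6%, and in that up to 5000 nt 88.2% and 16.5%. In the class up to 10000 nt 22 of 25 shared gaps matched (88%; 68.8 to 97.5), against 6.59% of the unshared gaps. Above 10000 nt 21 of 32 matched (65.6%; 46.8 to 81.4), against 1.61%. Each of those 21 lengths belongs to 1 annotated intron of its arm and strand.

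**Figure D2:**
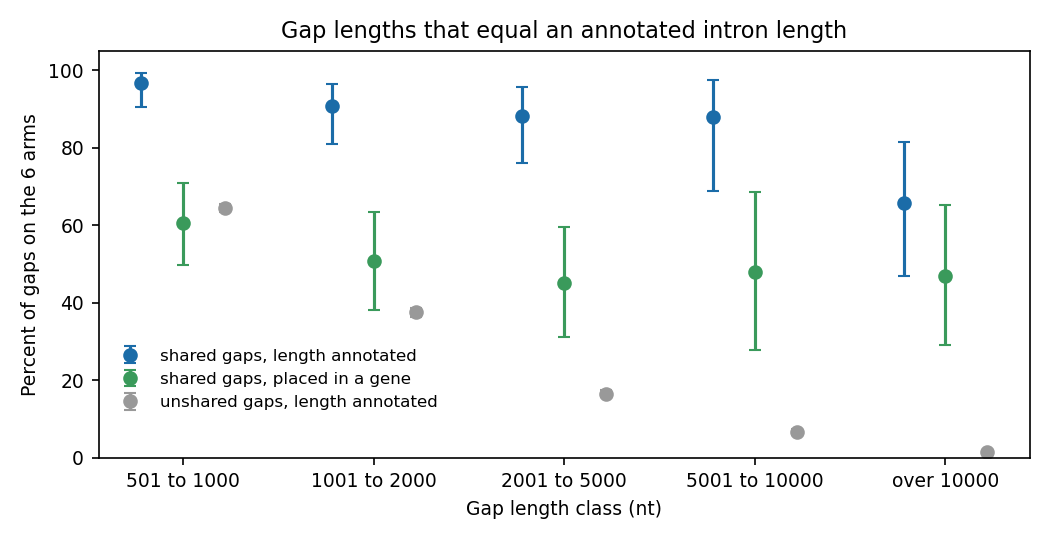
Percent of gaps on the 6 arms whose length equals an annotated intron length (shared gaps in blue, unshared in grey) or that were placed in a gene (green), by length class, with exact 95% intervals over gaps. The shared gaps stay at 88% or more up to 10000 nt while the unshared gaps go from 64.5% to 1.61%.

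A gap was placed in a gene where a second shared gap, of any length, had both the length and the distance of another annotated intron of that gene. This held for 137 of the 262 shared gaps (52.3%; 46.1 to 58.5) and for 1.19% of the unshared gaps over 500 nt. By class, 54 of 89 gaps up to 1000 nt were placed (unshared 1.62%), 33 of 65 up to 2000 nt (1.83%), 23 of 51 up to 5000 nt (1.42%), 12 of 25 up to 10000 nt (1.1%) and 15 of 32 longer ones (0.378%). Of the 137, 132 fell in 1 gene and 5 in overlapping genes such as Lar and CG46244. The 132 lay in 106 genes, 25 of which had 2 or more. The gap was the longest annotated intron of its gene in 32 of the 132 cases. It was the first intron of at least 1 transcript in 27 (20.5%; 13.9 to 28.3), against 227 of 713 remaining introns over 500 nt of the same genes (31.8%; 28.4 to 35.4). Placement needed a further shared gap in the gene, which bears on which genes could be named. The groups below were formed by known roles once the names had been seen, and cover 69 genes with 87 gaps. Their sizes were not set against the roles of all genes with long introns.

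Signalling and transcription regulators made up 17 genes with 25 gaps of 554 to 30025 nt. The longest placed gap lay in Gprk1, a kinase of G protein-coupled receptors, on 2R at 315503 to 345527, minus strand, and was 30025 nt long. Its upstream and downstream peaks had 356 and 129.5 reads per base in the eIF4AIII/Y14 list and 288 and 2.90 in the Btz/eIF4AIII list. Gprk1 held a second gap of 13438 nt. In kuz, the metalloprotease that cleaves Notch, a gap of 20127 nt on 2L at 13610579 to 13630705, plus strand, had 9.76 and 5.09 reads in Btz/eIF4AIII and 52.6 and 45 in the Y14/eIF4AIII list. In cact, the IκB homologue that holds Dorsal in the cytoplasm in the Toll pathway, the gap of 8101 nt on 2L at 16314859 to 16322959, minus strand, is the longest annotated intron of the gene. It had 57.4 reads upstream and 636 downstream in the eIF4AIII/Y14 list, and 375.5 and 291 in the Btz/eIF4AIII list. The side with more reads thus differed between the lists.

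Stat92E, the transcription factor of the JAK/STAT pathway, held a gap of 648 nt with 2202 reads upstream and 31.75 downstream in the eIF4AIII/Y14 list and 267 and 184 in the Btz/eIF4AIII list, deeper upstream in each list. The Wnt pathway gave pan (the TCF factor) with gaps of 2965 and 1083 nt on chromosome 4, and nkd (naked cuticle, an antagonist of the pathway) with gaps of 554 and 2340 nt. The corepressor gro (Groucho) held gaps of 842 and 708 nt, and CtBP, another corepressor, held 1 of 652 nt. In ush (u-shaped, a GATA factor cofactor that restrains crystal cell formation in blood cells), gaps of 1332 and 10586 nt followed each other on 2L from 524060 to 536022, plus strand. A peak of 45 nt stood between them, with 596 reads in the Btz/eIF4AIII list, 26.7 in the eIF4AIII/Y14 list and 3554 in the Y14/eIF4AIII list. In CrebA, an activator of secretory pathway genes, gaps of 11420 and 1462 nt were found.

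The cytoskeleton, its regulators and adhesion gave 18 genes with 21 gaps of 504 to 8570 nt. In alpha-Cat (α-catenin), the gap of 731 nt on 3L at 23319057 was in all 3 lists. Its reads upstream and downstream were 3841 and 469 in the eIF4AIII/Y14 list, 1939 and 2202 in Btz/eIF4AIII and 1074 and 596 in the Y14/eIF4AIII list. Patronin, a protein of microtubule minus ends, held a gap of 1855 nt in all 3 lists, on 2R at 13416697 to 13418551, minus strand. It had 2402 and 93.5 reads upstream and downstream in the eIF4AIII/Y14 list, 863 and 640 in Btz/eIF4AIII and 1080 and 437 in the Y14/eIF4AIII list, so the upstream peak was deeper in every list. In pigs, a Gas2-like protein of the cytoskeleton, a gap of 4669 nt on X at 6494544 to 6499212 was also in all 3 lists, with 320 and 33.5 reads, 4479 and 3333 reads, and 1143 and 1105 reads in the same order. The nuclear membrane protein gene klar held gaps of 7775 and 5812 nt, and zip (the heavy chain of non-muscle myosin) 1 of 4296 nt. The myosin phosphatase subunit gene Mbs held the longest of this group, 8570 nt.

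Genes of RNA processing and translation gave 7 genes with 8 gaps. The gap of 11092 nt in eIF5B, the factor that joins ribosomal subunits, was the longest of those in all 3 lists, on 3L at 3432366 to 3443457, minus strand. Its peaks had 81.7 reads upstream and 75.1 downstream in the eIF4AIII/Y14 list, 544 and 258 in the Btz/eIF4AIII list, and 1232 on each side, to the nearest read, in the Y14/eIF4AIII list. The ribosomal protein gene RpL10 held a gap of 805 nt in all 3 lists, with 1202 and 33.95 reads in the eIF4AIII/Y14 list, 3836 and 1344 in Btz/eIF4AIII and 258 and 737 in the Y14/eIF4AIII list, where the downstream peak was the deeper one. On chromosome 4, eIF4G1, the scaffold of the cap-binding complex, held the longest gap of that chromosome, 3883 nt at 941826 to 945708, minus strand, and gw (GW182, a protein of microRNA silencing) held 1 of 780 nt. Fmr1, the fly homologue of the fragile X protein, held 1 of 1215 nt with 265 and 340 reads in Btz/eIF4AIII and 766 and 745 in the Y14/eIF4AIII list.

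Channels and transporters gave 9 genes with 13 gaps, metabolic enzymes 7 with 8, matrix and secreted or surface proteins 4 with 4, chromatin proteins 3 with 4, cyclins 2 with 2 and nuclear pore proteins 2 with 2. The mechanosensitive channel gene Piezo held a gap of 9497 nt in all 3 lists, on 2L at 8163519 to 8173015, plus strand, and another of 1266 nt. At the longer one the reads upstream and downstream were 118 and 155 in the eIF4AIII/Y14 list, 40 and 39.3 in the Btz/eIF4AIII list, and 47.7 and 12.1 in the Y14/eIF4AIII list. The deeper side was downstream in the first list and upstream in the last, and in the Btz/eIF4AIII list the sides were nearly level. Acsl, a long-chain acyl-CoA synthetase, held a gap of 877 nt in all 3 lists with 3126 and 143 reads in the eIF4AIII/Y14 list, 853 and 397 in Btz/eIF4AIII and 1447 and 1446 in the Y14/eIF4AIII list. The laminin genes LanA and LanB2 held gaps of 1383 and 516 nt, and Nipped-B, the cohesin loader, held gaps of 1936 and 4298 nt. Among the transcription factors, the ETS factor gene pnt held a gap of 4870 nt in all 3 lists, on 3R at 19166250, minus strand, with 24.7 and 37.05 reads in the eIF4AIII/Y14 list, 662 and 919 in Btz/eIF4AIII and 690 and 216 in the Y14/eIF4AIII list.

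Some peaks stood between a long gap and another shared gap, so both of their borders were fixed. There were 31 such peaks beside 36 of the long gaps, 5 to 291 nt wide with a median of 87 nt. Of the 26 beside gaps placed in 1 gene, 25 had exactly the borders of an annotated exon, which placement of the gaps on both sides nearly fixes. In CG30089 a peak of 185 nt separated gaps of 18887 and 1565 nt. In MESR3 a peak of 32 nt separated gaps of 14018 and 17823 nt, with 100 reads in the eIF4AIII/Y14 list and 5.53 in the Btz/eIF4AIII list. In CaMKII (calcium/calmodulin-dependent kinase), on chromosome 4, a peak of 60 nt separated gaps of 628 and 1051 nt. In KrT95D, the gap of 16865 nt on 3R at 19839351 to 19856215, minus strand, ended at a peak of 5 nt that was followed by a gap of 65 nt. Its peaks had identical depths on both sides, 464 reads in Btz/eIF4AIII and 527 in the Y14/eIF4AIII list. This was the peak that matched no annotated exon.

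The peaks beside the gaps were wider upstream than downstream. These peaks belong to the lists that chose the gaps and are a description. In eIF4AIII/Y14 the median widths were 40 nt upstream and 12 nt downstream, with quartiles of 32 and 54.75 nt and of 7 and 32.75 nt. The upstream peak was the wider one at 164 of 214 gaps (76.6%; 70.4 to 82.1), against 46.3% of all gaps over 500 nt of that list, and the narrower one at 49, against 50.3%. In Btz/eIF4AIII the medians were 52.5 and 35 nt, and the upstream peak was wider at 160 of 254 gaps (63.0%) against 47.6%. In Y14/eIF4AIII they were 36 and 28.5 nt, and 55 of 92 gaps (59.8%; 49.04 to 69.9) were wider upstream against 48.8%, just below the interval. Downstream peaks under 10 nt bordered 76 of the 214 gaps in the eIF4AIII/Y14 list (35.5%), 21 of 254 in the Btz/eIF4AIII list (8.27%) and 17 of 92 in the Y14/eIF4AIII list (18.5%). Among unshared gaps over 500 nt these were 2.05%, 2.13% and 1.82%. Shared gaps of 50 to 75 nt had them at 46.4%, 12.5% and 24.1%, and were wider upstream at 85.8%, 69.6% and 62.4%, all above the long gaps.

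**Figure D3:**
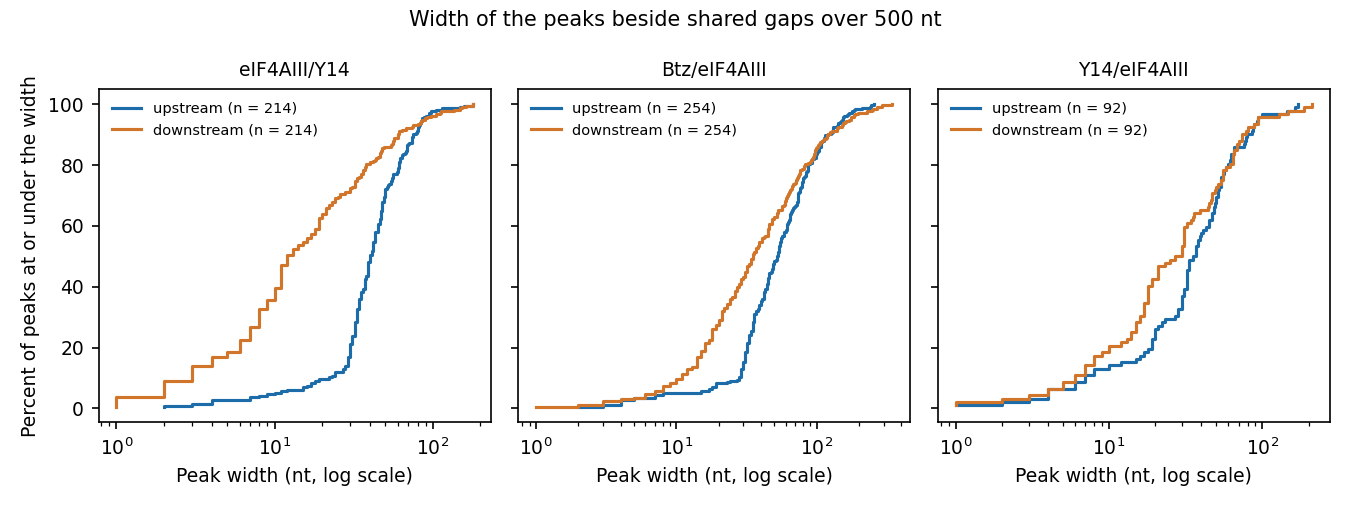
Cumulative percent of flanking peaks by width (log axis) upstream (blue) and downstream (orange) of the shared gaps over 500 nt in each list. The curves lie farthest apart in the eIF4AIII/Y14 list, with medians of 40 and 12 nt.

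Depth also leaned upstream, most in the eIF4AIII/Y14 list. Its median depths were 118.5 reads per base upstream and 43.5 downstream, and the upstream peak was deeper at 143 of 214 gaps (66.8%; 60.1 to 73.1) against 50.2% of all its gaps over 500 nt. The downstream peak was deeper at 51. In Btz/eIF4AIII the medians were 210 and 170 reads, and the upstream peak was deeper at 145 of 254 gaps (57.1%; 50.75 to 63.3, against 48%) and the downstream one at 89. In Y14/eIF4AIII the medians were 101 and 39.7 reads, with 50 deeper upstream and 20 downstream of 92. The upstream share was 54.3% (43.6 to 64.8) against 48.3% of all its gaps over 500 nt, which lies inside the interval. The downstream share was 21.7% against 49.4%. Identical depths, which count in the totals of both shares, made up 23.9% against 2.26%. Of the 270 gaps, 100 had a flanking peak of under 10 reads per base in at least 1 sharing list. On each strand and in each list more gaps were deeper upstream than downstream. Upstream was deeper at 69.4% of the plus and 64.7% of the minus gaps in the eIF4AIII/Y14 list, 55.96% and 57.9% in the Btz/eIF4AIII list, and 51.4% and 56.1% in the Y14/eIF4AIII list.

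Compared with shared gaps of 50 to 75 nt, the lean in the eIF4AIII/Y14 list was smaller at long gaps. There the upstream peak was deeper at 798 of 1027 short gaps, 77.7% (75.03 to 80.2), and the intervals do not meet. In Btz/eIF4AIII the short gaps had 60.3% (57.4 to 63.1) and in the Y14/eIF4AIII list 39.8% (34.98 to 44.8), whose intervals overlap those of the long gaps. The Y14/eIF4AIII share is low because of ties. Of its 402 short gaps, 160 were deeper upstream, 108 downstream and 134 had identical depths (33.3%). For the gaps over 10000 nt the upstream peak was deeper at 20 of 27 in the eIF4AIII/Y14 list, 22 of 31 in Btz/eIF4AIII and 11 of 15 in the Y14/eIF4AIII list. In the class above 1000 and up to 2000 nt these were 32 of 53, 33 of 62 and 7 of 21. Of those 21, 4 were deeper downstream and 10 had identical depths. The intervals of both classes overlapped in each list, so no change of the lean with length is read from them. Among gaps over 10000 nt, counted once per sharing list, the upstream peak was the deeper one at 29 of 43 with an annotated length and 17 of 22 without one.

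The lists did not always lean to the same side at 1 gap. Of the 198 gaps in both eIF4AIII/Y14 and Btz/eIF4AIII, 80 were deeper upstream in both and 17 downstream in both. At 47 the upstream peak was deeper in eIF4AIII/Y14 and the downstream one in the Btz/eIF4AIII list, and at 27 the reverse held. The remaining 27 had identical depths on the 2 sides in at least 1 list. The widest disagreement was in Srrm234, a gene of a serine/arginine-rich splicing protein family, at a gap of 1255 nt on 3L at 1658591 to 1659845, minus strand. It had 2355 reads upstream and 10.1 downstream in the eIF4AIII/Y14 list, but 11.97 and 1851 in the Btz/eIF4AIII list. A gap of 1059 nt on 3L at 3807005, plus strand, turned in the same way, with 548.5 and 66.1 reads against 7.5 and 956. At a gap of 3327 nt on 3R at 24652897, minus strand, the downstream peak was deeper in both sharing lists, with 435.5 and 668 reads in Btz/eIF4AIII and 5.78 and 729 in the Y14/eIF4AIII list.

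**Figure D4:**
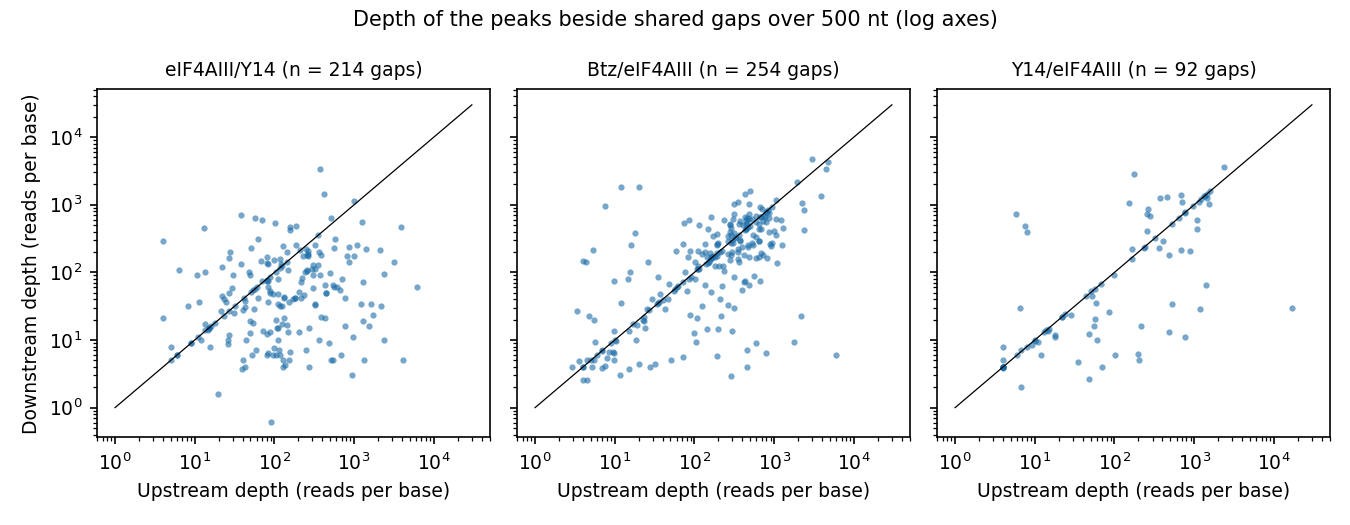
Depth of the upstream peak against that of the downstream peak (reads per base, log axes) for each shared gap over 500 nt in each list, with the line of equal depth. Points lie below the line at 143 of 214 gaps in the eIF4AIII/Y14 list, 145 of 254 in Btz/eIF4AIII and 50 of 92 in the Y14/eIF4AIII list, and a row of points lies on it.

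Identical depths on both sides, equal as deposited with a tolerance of 0, were commoner beside these gaps than beside all long gaps. They were found at 20 of 214 gaps in the eIF4AIII/Y14 list (9.35%), 20 of 254 in the Btz/eIF4AIII list (7.87%) and 22 of 92 in the Y14/eIF4AIII list (23.9%; 15.6 to 33.9), against 1.16%, 2.01% and 2.26% of all gaps over 500 nt. Shared gaps of 50 to 75 nt had them at 8.37%, 6.58% and 33.3%. With a tolerance of 1% of the deeper peak the counts at the long gaps were 23, 26 and 28. In these cases the widths of the 2 peaks added up to 15 to 40 nt in the eIF4AIII/Y14 list, 18 to 76 nt in Btz/eIF4AIII and 15 to 76 nt in the Y14/eIF4AIII list. The same upper values of 40, 76 and 76 nt held at shared gaps of 50 to 75 nt, whereas at unshared gaps over 500 nt the sums reached 95, 126 and 126 nt. An example is Nup358, a nuclear pore protein, whose gap of 520 nt had 658 reads on both sides in the Btz/eIF4AIII list, over peaks of 30 and 28 nt, and 8 reads on both sides in the Y14/eIF4AIII list, over peaks of 27 and 4 nt.

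The list that had no part in choosing a gap gives an independent measure. Each set below was chosen by the other 2 lists and includes the 20 gaps in all 3 lists, which the remaining list has too. For the 76 gaps common to Btz/eIF4AIII and Y14/eIF4AIII, an eIF4AIII/Y14 peak covered the base 22 nt upstream at 50 (65.8%; 54.01 to 76.3) and the base 22 nt downstream at 18 (23.7%; 14.7 to 34.8). Where 1 base alone was covered, it was the upstream one at 35 gaps and the downstream one at 3. With only the deeper peaks of each list the shares were 63.6% upstream and 9.09% downstream. When any base within 50 nt counted they were 73.7% (62.3 to 83.1) and 53.9% (42.1 to 65.5), so that the intervals met. A peak at the border that is narrower than 22 nt cannot cover the base measured. Downstream peaks of eIF4AIII/Y14 had a median width of 12 nt beside the gaps that this list shares. Its peaks ended exactly at the upstream border at 38 of the 76 gaps and began at the downstream border at 31. For the 36 gaps common to eIF4AIII/Y14 and Y14/eIF4AIII, a Btz/eIF4AIII peak covered the upstream base at 23 (63.9%; 46.2 to 79.2) and the downstream base at 18 (50%; 32.9 to 67.1). For the 198 gaps common to eIF4AIII/Y14 and Btz/eIF4AIII, a Y14/eIF4AIII peak covered the upstream base at 41 (20.7%; 15.3 to 27.02) and the downstream base at 25 (12.6%; 8.34 to 18.1). Beside unshared gaps over 500 nt the sides were level, at 17.1% and 16.96% for the eIF4AIII/Y14 list, 24.8% and 24.7% for Btz/eIF4AIII and 7.97% and 8.50% for the Y14/eIF4AIII list. The intervals of the 2 sides did not meet for the eIF4AIII/Y14 list and overlapped for the other lists, but both sides were read at the same gaps. Where 1 side alone was covered, it was upstream at 5 gaps and downstream at 0 for the Btz/eIF4AIII list, and upstream at 24 and downstream at 8 for the Y14/eIF4AIII list.

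**Figure D5:**
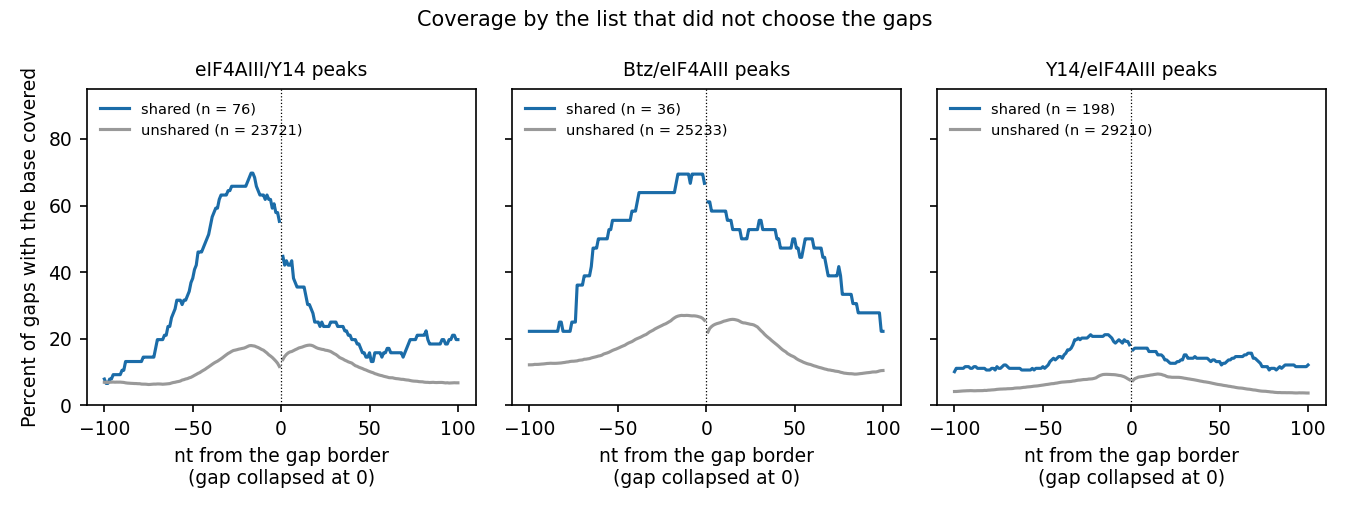
Percent of gaps whose base at each distance from the border was covered by a peak of the list that did not choose the gaps, from 100 nt upstream (negative) to 100 nt downstream, for shared (blue) and unshared (grey) gaps over 500 nt. Beside shared gaps eIF4AIII/Y14 reached 69.7% at 16 and 17 nt upstream and 44.7% at 1 nt downstream.

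The highest coverage lay upstream for each list, at 16 and 17 nt for the eIF4AIII/Y14 list (69.7%), between 2 and 16 nt for the Btz/eIF4AIII list (69.4%) and between 13 and 23 nt for the Y14/eIF4AIII list (21.2%). Downstream the highest values were 44.7%, 61.1% and 17.2%. A peak of the remaining list ended exactly at the upstream border at 38 of 76 gaps for the eIF4AIII/Y14 list (50%), 24 of 36 for the Btz/eIF4AIII list (66.7%) and 28 of 198 for the Y14/eIF4AIII list (14.1%). At unshared gaps over 500 nt this was 3.80%, 4.72% and 2.27%. Part of this contrast is fixed by the rule. Each shared set holds the 20 gaps in all 3 lists, where the remaining list has both borders. Unshared gaps leave out by definition any gap that the remaining list also has. A peak began exactly at the downstream border at 31, 21 and 27 gaps in the same order. In 25, 20 and 22 gaps both borders recurred, of which 20 each are the gaps in all 3 lists and the rest were interrupted by a peak of the remaining list.

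The gaps without an annotated length had the base 22 nt upstream covered less often where the remaining list was eIF4AIII/Y14. Of the 62 gaps of Btz/eIF4AIII and Y14/eIF4AIII with an annotated length, 48 had the base 22 nt upstream covered by eIF4AIII/Y14 (77.4%; 65.03 to 87.1), against 1 of 11 without one (9.09%; 0.230 to 41.3). For Btz/eIF4AIII these were 20 of 27 and 2 of 8, and for the Y14/eIF4AIII list 36 of 180 and 2 of 14, with overlapping intervals in each. A peak narrower than 22 nt that ends at the border cannot cover that base. At 2 of the 11 gaps without an annotated length, on 2L at 6629069 and 3R at 24986250, eIF4AIII/Y14 peaks of 8 and 17 nt ended at the border. Both counted as uncovered. The depths beside the 2 kinds of gap differed from list to list. In Btz/eIF4AIII the shallower peak of each gap had a median of 7.5 reads per base at 23 gaps without an annotated length and 144 at 224 with one. In Y14/eIF4AIII the medians were 11 at 17 gaps and 67 at 71. The eIF4AIII/Y14 list went the other way, with 57.8 at 20 gaps without an annotated length and 34 at 189 with one. The upstream peaks of the gaps without an annotated length were narrower in each list, with medians of 21.5, 24 and 19 nt against 41, 53 and 37 nt in the order eIF4AIII/Y14, Btz/eIF4AIII, Y14/eIF4AIII. Downstream the medians were 19.5, 21 and 18 nt against 12, 35 and 31 nt.

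The 5 longest gaps had no annotated length. The longest, 276314 nt on 2L at 22683563 to 22959876, minus strand, was flanked by 1283 reads upstream and 73 downstream in the eIF4AIII/Y14 list and 12 and 6 in the Y14/eIF4AIII list. It held 4 Btz/eIF4AIII peaks on its own strand and 49 peaks of the 3 lists on the other strand. The next, 94400 nt on 3L at 5429117, plus strand, had peaks of 15 and 16 nt with 12 and 10 reads in the eIF4AIII/Y14 list and 12 and 34.75 in the Btz/eIF4AIII list. On 2R, gaps of 57824 nt at 15556783, 46358 nt at 7917179 and 41135 nt at 1815973, all on the minus strand, followed. The last of these had 462 and 7 reads in Btz/eIF4AIII and 60.4 and 10 in the Y14/eIF4AIII list, and its upstream peak of 85 nt bordered a further shared gap of 60 nt.

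Ranked by the smaller of their ratios over the sharing lists, the 3 gaps with the largest ratio of upstream to downstream depth were outside the placed gaps. In 1 list alone placed gaps reached high ratios too. In the eIF4AIII/Y14 list these were 814 at a gap of 603 nt in gem and CG46319, 269 in Liprin-alpha and 234 in Srrm234. A gap of 39980 nt on 2R at 19039123, minus strand, had 5984 and 6 reads in Btz/eIF4AIII and 17075 and 30 in the Y14/eIF4AIII list, over peaks of 18 to 20 nt, with 2 eIF4AIII/Y14 peaks inside. A gap of 4247 nt on 3L at 3412557, minus strand, had 1281 and 19 reads in the eIF4AIII/Y14 list and 2190 and 23 in the Btz/eIF4AIII list. A gap of 10932 nt on the unplaced sequence Uextra at 27573719, plus strand, had 192 and 5.73 reads in Btz/eIF4AIII and 197 and 6.27 in the Y14/eIF4AIII list. Of the gaps in all 3 lists, 1 of 4483 nt on X at 3730874, minus strand, had the same flanks of 4 and 14 nt in each list, with 27 and 27 reads, 6 and 6, and 4 and 3.86, and was not placed in a gene. Beyond the gaps described above, the longest on each sequence had 29344 nt on 2L at 6131675, 32032 nt on 3L at 462559, 15726 nt on X at 13679986, 25405 nt on 2RHet at 207156, 27949 nt on 3LHet at 1316110, 3767 nt on Uextra at 21325544 and 573 nt on U at 1183510.

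Peaks of the remaining list on the same strand rarely lay inside a gap. They were found in 10 of 76 gaps for the eIF4AIII/Y14 list (13.2%; 6.49 to 22.9), in 1 of 36 for the Btz/eIF4AIII list (2.78%; 0.0703 to 14.5), which is the gap of 276314 nt (14.6% with borders within 2 nt), and in 19 of 198 for the Y14/eIF4AIII list (9.60%; 5.88 to 14.6). Unshared gaps over 500 nt held them in 65.9%, 63.1% and 35.3% of cases. Each set of shared gaps includes the 20 gaps in all 3 lists, which hold none by definition. Unshared gaps leave out by definition the empty gaps that the remaining list also has. Part of this contrast, and of the rates below, is thus fixed by the rule. In gaps of up to 2000 nt, where lengths are closer, eIF4AIII/Y14 had 0.962 peaks per 10 kb of shared gap (exact Poisson 95% interval 0.262 to 2.46) and 11.5 per 10 kb of unshared gap. Y14/eIF4AIII had 1.09 (0.579 to 1.86) and 4.11. Over 2000 nt the rates were 0.233 (0.101 to 0.459) and 0.512 for the eIF4AIII/Y14 list. For Y14/eIF4AIII they were 0.109 (0.0469 to 0.214) and 0.164, which lies inside the interval, and over all lengths 0.245 (0.152 to 0.375) and 0.241. The 21 Y14/eIF4AIII peaks inside had a median depth of 8 reads, against 34 for the whole list, while the 12 eIF4AIII/Y14 peaks had 60.5 against 52 and the 4 Btz/eIF4AIII peaks 105.9 against 95.3. After the longest gap, the most were 2 each, in MESR3 (14018 nt), in Gp210, a nuclear pore protein, at its gap of 1282 nt, in the gap of 39980 nt and in a gap of 30147 nt on 3L at 7686662, minus strand.

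The other strand, which the rule did not use, was also emptier inside the shared gaps. Peaks of any list on it lay in 21 of 270 gaps (7.78%; 4.88 to 11.6), at 1.05 per 10 kb (0.896 to 1.22). They lay in 39.0% of the unshared gaps over 500 nt, which were longer. Unshared gaps over 500 nt held 2.68 per 10 kb, counting a peak once for each gap around it, and the 6 arms 3.58 per 10 kb and strand. Up to 2000 nt the values were 0.515 (0.223 to 1.02) in shared and 1.46 in unshared gaps. Between 2000 and 10000 nt they were 0.974 (0.682 to 1.35) in shared and 7.95 in unshared gaps, and above 10000 nt 1.15 (0.959 to 1.38) and 2.39. Up to 2000 nt, such peaks lay in 3.23% of shared gaps (1.06 to 7.37) and 6.23% of unshared gaps, which lies inside the interval. Between 2000 and 10000 nt the shares were 6.33% (2.09 to 14.2) and 43.3%, and above 10000 nt 30.6% (16.3 to 48.1) and 77.4%. A few gaps held most of these peaks, with 49 in the gap of 276314 nt, 36 in that of 46358 nt on 2R, 19 in a gap of 4479 nt on 2L at 16820931, plus strand, 10 in a gap of 13046 nt on 3L at 16029497, plus strand, and 9 in that of 57824 nt. The intervals of these rates treat peaks as independent and are too narrow where peaks are clumped in this way. Of these 5 gaps only that of 4479 nt had an annotated intron length. With only the deeper peaks of each list the rate fell to 0.151 per 10 kb.

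The shared gaps just outside the limit of 500 nt were 499 nt long on 3R and X and 496 nt on X, with 4.42 to 990 reads in their flanking peaks. Just inside were 504 nt in kst (βH-spectrin) on 3L at 3367011, plus strand, 506 nt on 3R at 523265 and 508 nt on 2R at 7871816, with 6.75 to 495 reads.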

How the data were processed

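Each library has 1 list of stranded peaks, and the score the authors deposited is a signal value. Score times peak width was whole (tolerance 0.001) for 100% of peaks, as for a mean read depth per base. The submitters' processing notes name Bowtie and SAMtools without versions, and per the file headers tracks were clipped and merged. For the peak caller, its threshold and the build, the sources used here give nothing. Sequence names are those of release 5, and coordinates are 1-based.

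Gaps were made and compared in Python 3.11.15 with SciPy 1.17.1, and the functions were tested on simulated data. Upstream and downstream follow the strand column. Intron lengths and distances came from Ensembl 115 (release 6). Splice-site dinucleotides were not examined, since no release 5 genome was used, and S2 marker genes were not looked up, since no position was carried between releases. Intervals are 95% exact binomial intervals over gaps or, for rates per 10 kb, exact Poisson intervals over peaks. They cover counting error only and treat gaps, or peaks, as independent. PCR copies cannot be recognised.

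The gaps and measures were chosen with earlier results of these data known. The placement in genes, the role groups, the identical depths, the split by annotated length and its values by list were added after values had been seen. Regions named are the 5 longest, the 5 longest and 5 deepest (by unscaled depth of the shallowest flank) in all 3 lists, the 5 with most peaks of the remaining list inside and the 5 with most on the other strand, the 3 largest and 3 smallest depth ratios (the smaller over the sharing lists), and the longest per chromosome. Other genes were chosen by known role after their values were seen. Some genes are not reported here. Alternatives varied peak depth, peak width, border tolerance, length limits, sequences and the base measured.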

Additional observations from a re-analysis of the deposited data

How the results depend on the processing

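Of 132 values under the 8 alternatives, 104 stayed within the interval of the reported value, or for counts within 1.5 times it, and 28 moved. With only the deeper peaks of each list, the count of shared gaps was 79, of those in all 3 lists 6, and the median length 2353 nt. The eIF4AIII/Y14 base downstream was then covered at 9.09%, its upstream peak was wider at 67.3%, peaks lay inside at 0% for Btz/eIF4AIII and 2.04% for Y14/eIF4AIII, the other strand held 0.151 peaks per 10 kb, and 94.8% of lengths were annotated. For Btz/eIF4AIII both sides were then covered equally, at 66.7%. Without peaks narrower than 10 nt the count was 167, eIF4AIII/Y14 was wider upstream at 68%, Btz/eIF4AIII covered 80.95% upstream and 71.4% downstream, the other strand held 1.37 peaks per 10 kb and 83.95% of lengths were annotated. With borders within 2 nt, eIF4AIII/Y14 covered 52.9% upstream, Btz/eIF4AIII peaks lay inside 14.6%, the other strand held 0.705 per 10 kb and 79.7% of lengths were annotated. The median length was 3312 nt for gaps over 1000 nt and 1307.5 nt for those up to 10000 nt, where the other strand held 0.838 per 10 kb and Btz/eIF4AIII peaks lay inside 0%. At 10 nt from the border eIF4AIII/Y14 covered 35.5% downstream. When any base within 50 nt counted, downstream coverage was 53.9% for the eIF4AIII/Y14 list, 69.4% for the Btz/eIF4AIII list and 24.2% for the Y14/eIF4AIII list, and upstream coverage of Y14/eIF4AIII was 28.3%. Fewer peaks or other lengths enter by construction in these settings, and otherwise the cause was not tested. Coverage was higher upstream in all settings but the tie named. No pairing of libraries was possible because each purification had 1 library, while the 2 sides were compared at the same gaps.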
